A study of Mus musculus with 2 samples.

Results

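The genes described here act in the disassembly of the primary cilium, the antenna-like organelle on which vertebrate cells receive Hedgehog and other signals. They were chosen by name, 10 in number, and all 10 were found among the 55401 genes of the deposited tables by matching Ensembl identifiers to GENCODE symbols. They are the kinase genes Aurka, Plk1 and Nek2, the scaffold gene Nedd9, the kinesin genes Kif2a and Kif24, the deacetylase gene Hdac6, the activator gene Tchp, the katanin-like gene Katnal1 and the satellite scaffold gene Pcm1. The tissue was mouse pituitary at embryonic day E12.5, a stage at which Rathke's pouch holds mostly dividing progenitors. Polyadenylated total RNA of wild-type embryos was sequenced beside that of Dyrk2 knockout (Dyrk2-/-) embryos, in 1 library per genotype. The sources used here do not give the strain, the sex or the number of embryos in each library.

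A primary cilium is built on the mother centriole when a cell leaves the division cycle and is taken down when the cell re-enters it. In cultured cells the scaffold Nedd9 and the centriolar protein Tchp activate Aurora A, the product of Aurka, which switches on the deacetylase Hdac6 against acetylated tubulin of the axoneme. Plk1 and Nek2 act through kinesins that remove tubulin from microtubule ends: Plk1 through Kif2a, and Nek2 through Kif24, which also binds the centriole cap protein Ccp110. Pcm1 organises the centriolar satellites around the basal body, and katanins cut microtubules internally. Dyrk2 encodes a protein kinase, and the title of the series names primary cilia in cell identity and vessel growth as its subject.

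Values are FPKM, which divide the fragments of a gene by its exon length and by the size of the library, so that levels can be compared between genes per length. Whole fragments were recovered from the values, at totals of about 20046000 in the wild-type and 20116000 in the other library. The 10 genes were covered by 289 to 6149 fragments in a library. Intervals in parentheses are exact 95% limits for counting error, Poisson for a level and Clopper-Pearson for a ratio. They say nothing of how embryos of 1 genotype vary, and with 1 library each the differences are unreplicated and were not tested. In whole tissue, fewer cells of a type and less RNA per cell cannot be told apart. Dyrk2 itself was at 11.5 FPKM in the wild-type and 1.93 FPKM in the knockout library, a ratio of 0.168 (0.146 to 0.192).

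The promoters of 4 of these genes are shown first, because Aurka, Plk1 and Kif24 were the genes whose ratio of knockout over wild type had a counting interval above 1, while that of Nek2, another kinase of mitotic cells, did not. RefSeq promoter sequences on GRCm38.p6 were found for 9 of the 10 genes, all but Pcm1. The stretches are upstream of the RefSeq start, 5′ to 3′ on the strand of the gene. Capitals mark CCAAT or its reverse ATTGG and, in Kif24, TTCGAA. The GENCODE starts used further on differ, and lie within the stretch for Nek2, at 191821444, and for Kif24, at 41464887. The TTCGAA of Kif24 thus lies after its GENCODE start.
Aurka, chr2:172370571-172370670, minus strand: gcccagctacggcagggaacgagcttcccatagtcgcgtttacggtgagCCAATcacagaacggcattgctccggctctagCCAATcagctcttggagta
Plk1, chr7:122159335-122159434, plus strand: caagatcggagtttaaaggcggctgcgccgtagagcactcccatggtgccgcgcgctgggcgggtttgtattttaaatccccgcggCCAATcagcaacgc
Nek2, chr1:191821373-191821472, plus strand: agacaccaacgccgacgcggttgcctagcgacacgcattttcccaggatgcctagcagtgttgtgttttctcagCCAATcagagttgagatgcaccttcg
Kif24, chr4:41464849-41465098, minus strand: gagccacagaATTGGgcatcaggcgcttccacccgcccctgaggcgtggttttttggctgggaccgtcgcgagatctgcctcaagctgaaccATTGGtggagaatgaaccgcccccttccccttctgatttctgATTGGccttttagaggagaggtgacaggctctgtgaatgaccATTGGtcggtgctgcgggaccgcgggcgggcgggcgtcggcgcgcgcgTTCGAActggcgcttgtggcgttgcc

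The same windows, from 250 bases before to 50 bases after the RefSeq start, were searched on both strands. The letters sought were CCAAT, the box bound by NF-Y, and TTTGAA, the common form of the cell cycle homology region of late cell cycle genes. TTCGAA, a variant of the latter, and TTTCGCGC, a form of the E2F site, were searched too. Aurka and Plk1 each held TTTGAA after the RefSeq start, at bases 33 and 31 counted from it. The match in Aurka spans its GENCODE start at 172370535. The next 2 stretches show the matches in capitals.
Aurka, chr2:172370523-172370548, minus strand: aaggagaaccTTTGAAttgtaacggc
Plk1, chr7:122159455-122159480, plus strand: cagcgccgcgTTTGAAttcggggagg

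CCAAT was found in 7 of the 10 promoters that the 9 genes had, and 37.4% of all 32851 promoters of this length hold it. It was as common in other lists described further on, in 73.5% of promoters of mitotic, 66.7% of S phase and 65.5% of cilium assembly genes. Kif24 held 4 copies, all on the reverse strand, a number reached by 1.06% of all promoters. It was reached by 18.4% of mitotic, 6.90% of cilium assembly and 0% of S phase promoters. TTTGAA was found in Aurka, Plk1 and Hdac6, all 3 of which also held CCAAT, against 17.9% of all promoters for TTTGAA and 6.95% for both. Nek2 held CCAAT on both sides of the RefSeq start and no TTTGAA or TTCGAA in this window. Both CCAAT copies of Nek2 lie after its GENCODE start. TTCGAA occurred in Kif24, and was present in 1.56% of all promoters and 10.2% of mitotic ones. No promoter of an S phase or cilium assembly gene held TTCGAA. TTTCGCGC, present in 0.323% of all promoters, occurred in none of the 9 genes. Of the mitotic genes, 44 had a promoter in the table, and of their 49 promoters 67.3% held TTTGAA and 53.1% held both. Among those of cilium assembly genes 6.90% held both. A match of letters describes the window and was not tested for binding. The 4 promoters printed were picked by unreplicated ratios of these same libraries, and that of Katnal1, whose interval lay below 1, is not printed. Nor is that of Hdac6, which held both CCAAT and TTTGAA and whose ratio was 0.945 (0.888 to 1.005). A link between motifs and ratios was not tested.

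All 10 disassembly genes were expressed, and none differed by as much as 1.5-fold between the libraries. Their levels spanned 2.25 to 54.96 FPKM. After 0.5 FPKM was added to both values, the log2 ratios of knockout over wild type ran from -0.18 for Nedd9 to 0.21 for Aurka. By that measure 6.62% of the 14000 genes that reached 1 FPKM in either library were at least 1.5-fold apart, 2.06% higher and 4.56% lower. The counting interval of the plain ratio lay above 1 for 3 genes, Aurka, Plk1 and Kif24, where the background is 17.7% of genes. It lay below 1 for Katnal1 alone, where the background is 22.3%. With 10 genes these counts are near the background. The median log2 ratio of the 10 genes was 0.00 (-0.003), and that of all 14000 genes was -0.02.

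**Figure D1:**
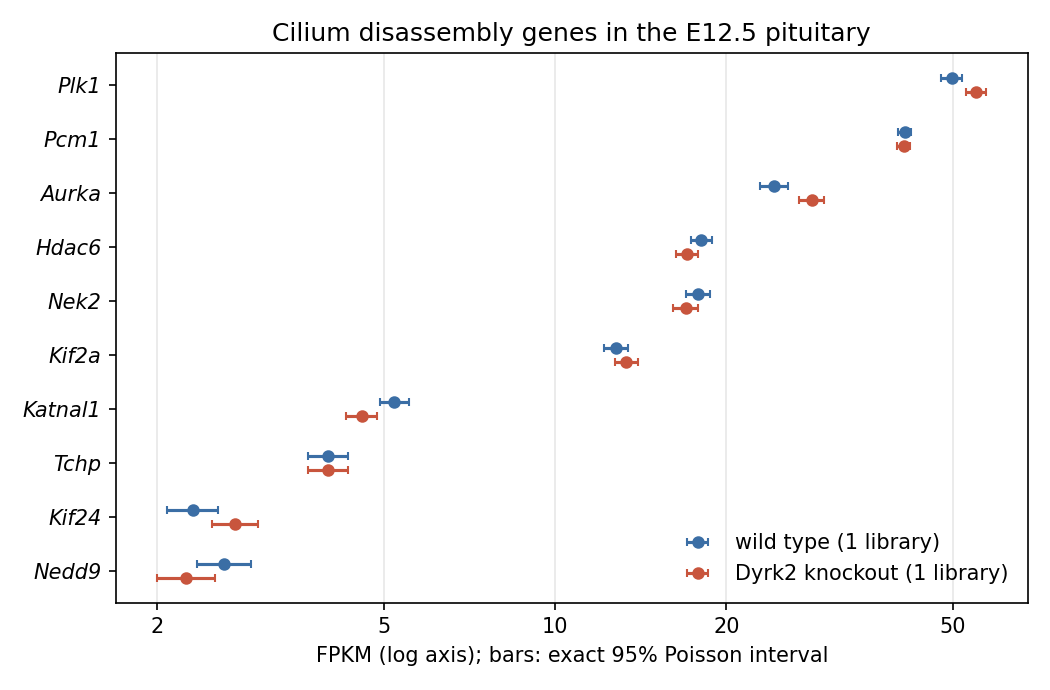
FPKM of each cilium disassembly gene on a log axis in the wild-type (blue) and knockout (red) library, 1 library each, with exact 95% Poisson intervals as bars. Plk1 and Pcm1 are the most expressed and Nedd9 and Kif24 the least, and the intervals of the 2 libraries are apart for Aurka, Plk1 and Katnal1.

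The order of levels was almost the same in both libraries. Plk1 led, at 49.8 FPKM (47.7 to 51.9) in the wild-type library, followed by Pcm1, Aurka, Hdac6, Nek2, Kif2a, Katnal1 and Tchp. The last places were taken by Nedd9 and Kif24 in the wild-type library and by Kif24 and Nedd9 in the knockout library. Neighbours in this order whose counting intervals overlapped were Hdac6 and Nek2 in both libraries, Nedd9 and Kif24 in both, and Katnal1 and Tchp in the knockout library. All other neighbours were apart. Among all genes compared, the mean level of Plk1 stood at percentile 93.9 and that of Nedd9 at percentile 19.8.

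Aurka, on chromosome 2 from 172356190 to 172370535 in GRCm38, encodes the kinase at the centre of the pathway. It measured 24.3 FPKM (22.9 to 25.7) in the wild-type and 28.2 FPKM (26.8 to 29.7) in that of the knockout, the higher value, and the intervals did not overlap. The ratio was 1.16 (1.08 to 1.26) and the log2 ratio of 0.21 stood at percentile 89.8 of all genes compared. Among the 3721 genes within 2-fold of its level, the middle 90% of log2 ratios ran from -0.26 to 0.23, so Aurka lay inside that range.

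Nedd9, on chromosome 13 from 41309581 to 41487362, encodes the Cas family scaffold that activates Aurora A at the basal body. It measured 2.62 FPKM (2.35 to 2.92) in the wild-type and 2.25 FPKM (2.001 to 2.53) in the knockout, and the intervals overlapped. Its ratio of 0.859 had an interval that included 1 (0.732 to 1.01). Per length, Aurka transcripts were 9.27 times (8.20 to 10.5) as abundant as Nedd9 transcripts in the wild-type library and 12.54 times (11.0 to 14.3) in the knockout library. The 2 intervals of this kinase-to-scaffold ratio did not overlap.

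Tchp, on chromosome 5 from 114707760 to 114722327, encodes trichoplein, which activates Aurora A at the centrioles of growing cells. It was at 3.99 FPKM in both libraries, and the ratio between them had limits of 0.891 and 1.12. Aurka transcripts were 6.09 times (5.51 to 6.72) and 7.07 times (6.42 to 7.79) as abundant as those of Tchp in the wild-type and knockout library, with overlapping intervals.

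Plk1, on chromosome 7 from 122159439 to 122169873, encodes Polo-like kinase 1, which drives mitotic entry and acts on the cilium base. It measured 49.8 FPKM in the wild-type and 55.0 FPKM (52.8 to 57.2) in the knockout library, a ratio of 1.10 (1.04 to 1.17). The knockout value was the higher one. Its log2 ratio of 0.14 was inside the range of the middle 90% of genes near its level, -0.21 to 0.23.

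Nek2, on chromosome 1 from 191821444 to 191833050, encodes a kinase that separates centrosomes before mitosis. It measured 17.8 FPKM (17.0 to 18.7) in the wild-type and 16.9 FPKM (16.1 to 17.8) in that of the knockout, slightly the lower value, with overlapping intervals and a ratio of 0.951 (0.886 to 1.02). The ratio intervals of Nek2 and of Aurka did not overlap.

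The kinesin genes were level or slightly higher. Kif2a, on chromosome 13 from 106958996 to 107022126, encodes a kinesin-13 that depolymerises microtubules. It measured 12.8 FPKM (12.2 to 13.4) and 13.3 FPKM (12.7 to 14.0), a ratio of 1.04 (0.975 to 1.12). Kif24, on chromosome 4 from 41390745 to 41464887, encodes the relative that keeps the mother centriole from forming a cilium. It measured 2.31 FPKM (2.08 to 2.56) without and 2.74 FPKM (2.49 to 3.01) with loss of Dyrk2. Its ratio of 1.19 (1.03 to 1.37) was the highest of the 10 plain ratios and rested on 371 and 442 fragments. With 99% limits the interval of Kif24 included 1, while those of Aurka, Plk1 and Katnal1 did not.

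The kinase-to-kinesin pairs were set side by side within each library. Nek2 transcripts were 7.72 times (6.89 to 8.67) as abundant as Kif24 transcripts in the wild-type library and 6.19 times (5.56 to 6.89) in the knockout library. Plk1 transcripts were 3.90 times (3.65 to 4.16) and 4.12 times (3.87 to 4.38) as abundant as those of Kif2a. The intervals of the Plk1 pair overlapped, and those of the Nek2 pair lay just apart.

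Hdac6, on the X chromosome from 7930120 to 7947889, encodes the cytoplasmic deacetylase of tubulin and cortactin. It measured 18.1 FPKM (17.3 to 18.9) in the wild-type and 17.1 FPKM (16.3 to 17.8) in the knockout library. Its ratio was 0.945, with an interval that just included 1 (0.888 to 1.005). The libraries differed in sex-linked transcripts, with the X-inactivation transcript Xist at 74.98 and 14.8 FPKM and the Y-linked gene Ddx3y at 5.83 and 14.9 FPKM. The part of that difference in the values of the X-linked Hdac6, or of any other X-linked gene of the lists, was not tested.

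Katnal1, on chromosome 5 from 148871584 to 148929320, encodes a catalytic katanin-like subunit that severs microtubules. It measured 5.22 FPKM (4.91 to 5.54) in the wild-type and 4.57 FPKM (4.29 to 4.87) in that of the knockout, the lower value, with a ratio of 0.875 (0.802 to 0.956) and a log2 ratio of -0.17. Among the 5394 genes within 2-fold of its level, the middle 90% of log2 ratios ran from -0.50 to 0.32.

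Pcm1, on chromosome 8 from 41239752 to 41332344, encodes the scaffold of the centriolar satellites. It was the most deeply counted of the 10 genes, with 6149 and 6145 fragments. It measured 41.1 FPKM (40.1 to 42.2) and 41.0 FPKM (39.9 to 42.0). Its ratio of 0.996 (0.961 to 1.03) had the narrowest interval of the 10.

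**Figure D2:**
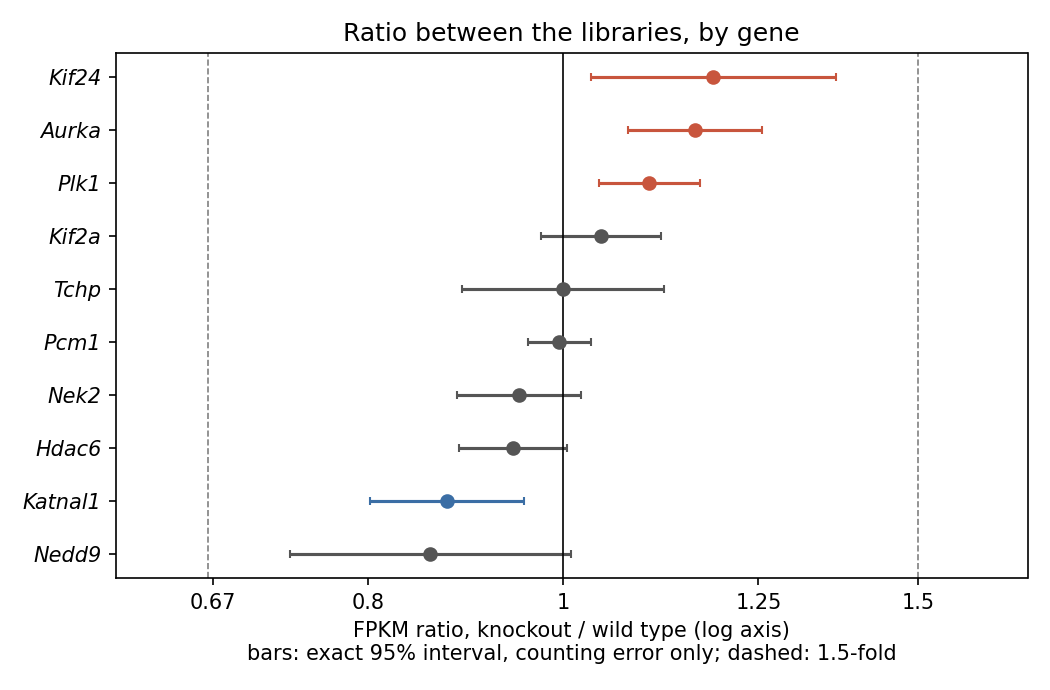
Plain FPKM ratio of knockout over wild type for each gene on a log axis, with exact 95% limits for counting error, in red where the interval lies above 1, blue where it lies below 1 and grey where it includes 1. All 10 intervals lie inside the dashed lines at 1.5-fold, with Kif24, Aurka and Plk1 above 1 and Katnal1 below 1.

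Gene models of some members share exon sequence with neighbours, and the sources used here do not say whether fragments were counted by strand. The exons of Kif2a overlap those of Dimt1 on the opposite strand over 19.2% of their length, and Dimt1 measured 3.73 and 3.16 FPKM. Overlaps on the opposite strand covered 7.09% of Plk1, 6.60% of Nek2 and at most 2.42% of the others. Katnal1 shares 6.12% of its exon length with Gm42791 on its own strand, which was at 0.06 FPKM and 0. Aurka, Kif24, Hdac6 and Pcm1 overlap no other exons.

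The 10 genes were then placed among all genes compared by level and ratio. Plk1 and Pcm1 lie at percentiles 93.9 and 91.4 by level, where log2 ratios scatter less than among weak genes such as Nedd9 and Kif24.

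**Figure D3:**
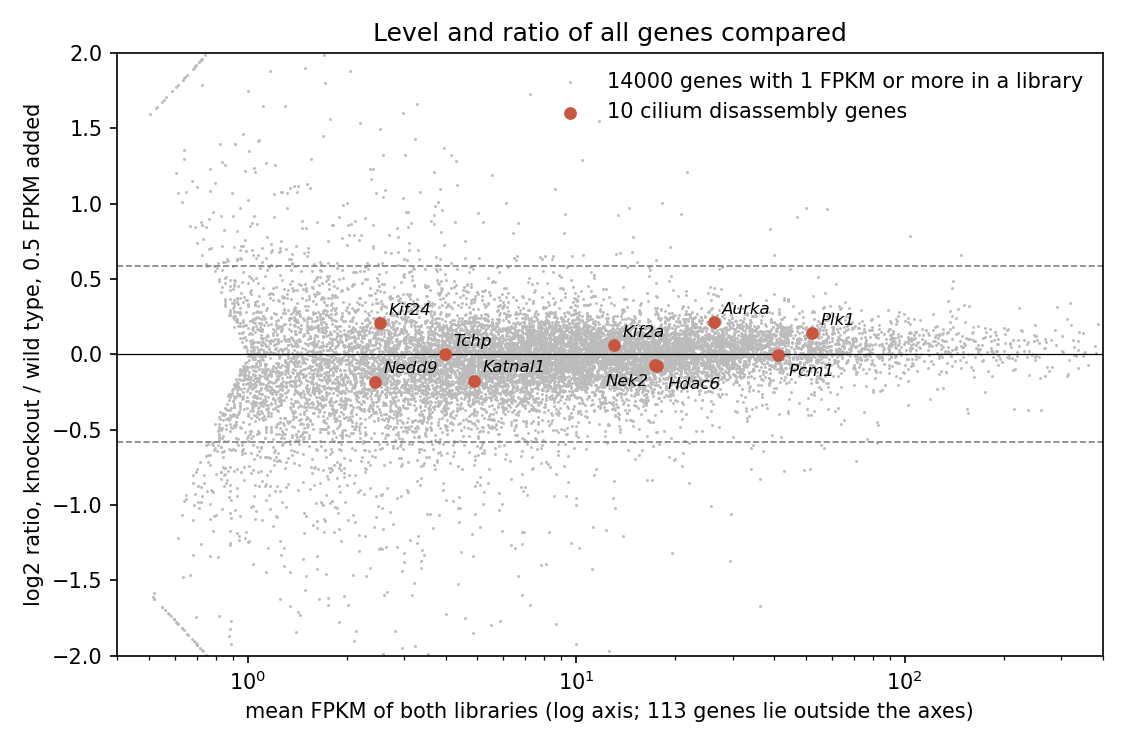
Mean FPKM of both libraries (log axis) against the log2 ratio of knockout over wild type with 0.5 FPKM added, for 14000 genes in grey and the 10 cilium disassembly genes in red, with dashed lines at 1.5-fold and 113 genes outside the axes. The 10 genes lie within the body of the cloud, from -0.18 to 0.21.

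The closest relatives of the members were expressed alongside them. Aurkb, the Aurora kinase of the chromosomal passenger complex, measured 28.3 and 30.8 FPKM, a ratio of 1.09 (1.02 to 1.16), and Aurkc was listed at 0 in both libraries. Plk4, the kinase of centriole duplication, measured 9.44 and 10.4 FPKM, and Plk2 measured 19.7 and 19.1 FPKM. Kif2c, the mitotic kinesin-13, measured 14.5 and 16.1 FPKM, a ratio of 1.11 (1.03 to 1.20). Kif2b was at 0 and 0.02 FPKM.

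Among the Nek kinases 8 of 11 reached 1 FPKM, 6 of them with log2 ratios below 0, where 53.7% of all genes were. Nek9, an upstream kinase of mitotic Neks, was the most expressed, at 46.0 and 45.3 FPKM. Nek8, which works in the proximal cilium and is mutated in kidney cystic disease, measured 3.97 and 2.86 FPKM, 1.39-fold lower (1.20 to 1.62). Nek6 measured 4.64 and 5.89 FPKM, a ratio of 1.27 (1.17 to 1.38). Nek8 and Nek6 thus lay on opposite sides, both within 1.5-fold.

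Of the 6 class II deacetylases, Hdac6 was the most expressed. Hdac5, a nuclear regulator, measured 14.5 and 10.01 FPKM, 1.45-fold lower (1.36 to 1.54), and Hdac9 measured 1.34 and 1.06 FPKM, 1.26-fold lower (1.09 to 1.47). Hdac7 measured 9.82 and 11.3 FPKM. Log2 ratios were below 0 for 5 of the 6, where 53.7% of all genes were. Among these 5, Hdac10, at -0.01, was nearer to 0 than the 0.02 by which rescaling moved ratios. The interval lay below 1 for 3 of the 6 and above 1 for Hdac7, against 22.3% and 17.7% of all genes. In the Cas family, Efs and Bcar1 were more abundant than Nedd9 in both libraries, Efs at 27.1 and 24.2 FPKM and Bcar1 at 19.9 and 21.2 FPKM. Among katanins, the catalytic subunit gene Katna1, whose protein is a substrate of human DYRK2, measured 20.6 and 22.3 FPKM, a ratio of 1.08 (0.987 to 1.18). Katnal2 was 1.19-fold lower (1.01 to 1.39), next to Katnal1 at 1.14-fold lower (1.05 to 1.246).

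Other genes of the pathway were taken from 6 lists with 55 genes in all, of which 54 reached 1 FPKM. Of these, 28 had log2 ratios above 0 and 26 below. The counting interval lay above 1 for 15 and below 1 for 9, against 17.7% and 22.3% of all genes. All but 1 lay within 1.5-fold, where 6.62% of all genes were further apart. The median log2 ratio was 0.01.

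Regulators of Aurora A gave 10 of 16 log2 ratios above 0, where 45.7% of all genes were, with a median of 0.05. The interval lay above 1 for 6 and below 1 for 1, against 17.7% and 22.3% of all genes. Tpx2, the spindle activator of Aurora A, measured 45.1 and 51.5 FPKM, a ratio of 1.14 (1.09 to 1.19). Cenpj, a centriole protein that scaffolds the disassembly complex, measured 6.05 and 7.44 FPKM, a ratio of 1.23 (1.10 to 1.37). Inpp5e, a ciliary phosphoinositide phosphatase, was the gene with an interval below 1, at 11.5 and 9.28 FPKM and 1.24-fold lower (1.12 to 1.36). The calmodulin genes Calm2 and Calm3, whose product binds Aurora A, measured 205 and 214 FPKM and 186 and 184 FPKM.

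In the list for Plk1 the median log2 ratio over 6 genes was 0.10. Ccnb1, the mitotic cyclin B1, measured 28.9 and 32.8 FPKM, and its partner Cdk1 20.8 and 22.8 FPKM. Wnt5a, a ligand tied to Plk1 through Dvl2, measured 7.54 and 8.5 FPKM, and the casein kinase gene Csnk1d 72.0 and 71.6 FPKM. The interval lay above 1 for 3 of the 6, Ccnb1, Cdk1 and Wnt5a, and below 1 for 0, against 17.7% and 22.3% of all genes.

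In the list of the distal centriole cap and the Nek2 arm all 8 log2 ratios were below 0, where 53.7% of all genes were, and all 8 lay within 1.5-fold. The median was -0.10. Ccp110, which caps the mother centriole and binds Kif24, measured 10.1 and 8.77 FPKM, 1.15-fold lower (1.07 to 1.24). Its partner Cep97 measured 4.25 and 3.85 FPKM. Crocc, the rootlet protein that Nek2 phosphorylates, measured 12.9 and 11.8 FPKM, 1.10-fold lower (1.03 to 1.17). Mark4, a kinase that promotes cilium formation, measured 16.4 and 15.5 FPKM. The counting interval lay below 1 for 2 of the 8 genes, Ccp110 and Crocc, a share near the 22.3% of all genes. Rescaling of the libraries, given in the closing section, moved log2 ratios by at most 0.02 and left all 8 below 0.

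For tubulin acetylation, the acetyltransferase gene Atat1, which acts against Hdac6, measured 12.48 and 10.7 FPKM, 1.17-fold lower (1.07 to 1.27). Hdac2 and Cttn, the cortactin gene, measured 67.9 and 70.8 FPKM and 54.3 and 55.9 FPKM. Atat1 and Hdac6 thus both had the lower value in the knockout library, with an interval below 1 for Atat1.

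Among 11 genes for microtubule depolymerisation and severing, 10 reached 1 FPKM, and 1 stood beyond 1.5-fold. This was Kif19a, a kinesin that limits the length of motile cilia, at 2.44 and 0.56 FPKM, 4.36-fold lower (3.14 to 6.12). It was the only gene of the 54 beyond that threshold. Spast, the severing enzyme spastin, measured 24.8 and 25.1 FPKM.

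The satellite genes divided evenly, 5 above and 5 below 0, around a median log2 ratio of 0.01. Bbs4, a BBSome subunit held by Pcm1, measured 4.78 and 3.53 FPKM, 1.35-fold lower (1.19 to 1.54), and Ofd1 7.65 and 6.40 FPKM, 1.20-fold lower (1.07 to 1.34). Wrap73 and Ssx2ip, which work together at the centrosome, measured 6.29 and 7.66 FPKM and 20.5 and 22.4 FPKM. Cep131 was level, at 22.6 and 22.5 FPKM. Pcm1 itself was thus level while satellite partners lay on both sides.

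Transcripts of dividing cells were slightly higher in the knockout library, and Aurka and Plk1 lay among them. Of 49 mitotic genes other than the members, 44 had log2 ratios above 0, where 45.7% of all genes were, and the interval lay above 1 for 35 and below 1 for 2, against 17.7% and 22.3% of all genes. Their median log2 ratio was 0.12, with the tubulin gene Tubb4b at 129 and 145 FPKM, Anp32e at 121 and 133 FPKM, and Nuf2, a kinetochore gene, highest at 8.76 and 11.4 FPKM. The 42 S phase genes had a median of 0.19, with Pcna at 75.5 and 90.2 FPKM. The log2 ratio of Aurka was above that of 43 mitotic genes and that of Plk1 above that of 33. The mitotic list shares 3 genes with the pathway lists, Tpx2, Cdk1 and Kif2c. That of Kif24 was above 42 of them.

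Nek2 parted from this group. Its log2 ratio of -0.07 was above that of 2 mitotic genes and below that of 47. Whether the higher values of Aurka, Plk1 and Kif24 follow the share of dividing cells was not tested.

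Cilium assembly genes lay slightly lower than the background. Of 34 that reached 1 FPKM, 22 had log2 ratios below 0 and 12 above, where 53.7% of all genes were below. The interval lay below 1 for 9 and above 1 for 3, against 22.3% and 17.7% of all genes. The median was -0.06, and all 34 lay within 1.5-fold. Rab11a, a trafficking GTPase, measured 33.8 and 37.0 FPKM, Ift74 27.6 and 29.5 FPKM, and Tctn1, a transition zone gene, 6.25 and 4.85 FPKM. The disassembly genes, with 4 above 0, 5 below and Tchp at 0, had a median between those of both lists. These differences between lists were not tested.

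**Figure D4:**
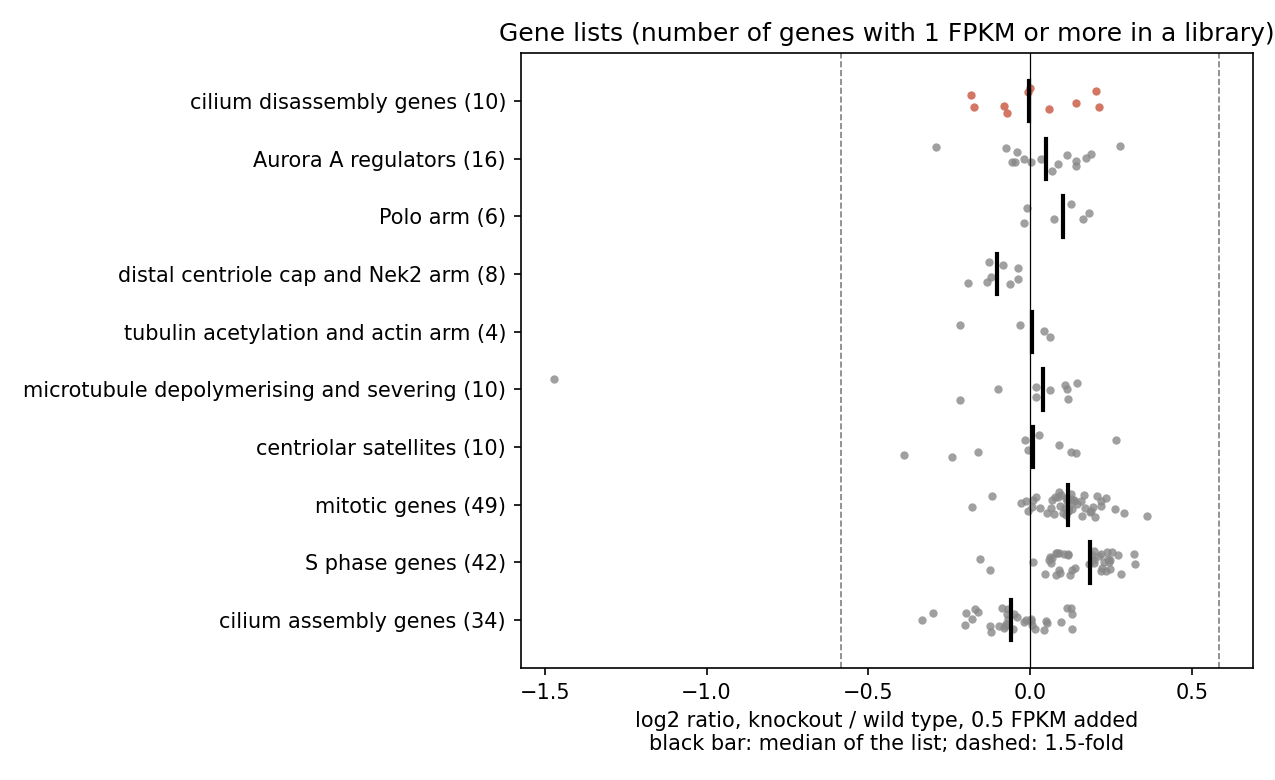
Log2 ratio of knockout over wild type with 0.5 FPKM added for each gene of each list that reached 1 FPKM in a library, with the median as a black bar and dashed lines at 1.5-fold. The 10 cilium disassembly genes centre on 0, the mitotic and S phase lists lie to the right at medians of 0.12 and 0.19, and Kif19a is the single point far to the left.

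Markers of the tissue and its neighbours were read in the same libraries. All 10 pituitary progenitor markers were present, at 5.52 to 250 FPKM, with Pitx1 at 250 and 227 FPKM. Their summed level was 783 FPKM in the wild-type and 711 FPKM in the knockout library. Log2 ratios were below 0 for 8 of the 10, where 53.7% of all genes were, and 1 was at least 1.5-fold lower. Their interval lay below 1 for 6 and above 1 for 1, against 22.3% and 17.7% of all genes. The 8 mesenchyme markers summed to 136 and 70.8 FPKM, with 5 at least 1.5-fold lower and 1 higher. Of all genes 4.56% were lower and 2.06% higher by that much. The 7 endothelial markers summed to 96.4 and 114 FPKM. Neuronal markers were mixed: 5 of 7 had log2 ratios above 0, where 45.7% of all genes were. The neuronal median was 0.30, while the neuronal sum was 99.7 and 87.1 FPKM, with Nefl and Nefm lower. Sums were 2160 and 1658 FPKM for 6 erythroid, 73.2 and 70.7 for 6 hypothalamic and 9.18 and 7.47 for 5 macrophage markers. The 5 skeletal muscle markers summed to 0.48 and 1.10 FPKM, none reaching 1 FPKM. No marker was at 0 in both libraries. The part of these shifts in the ratios of the disassembly genes was not tested.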

How the data were processed

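Per the file headers, the authors deposited 1 table per library with Ensembl identifier, summed exon length and FPKM to 2 decimals. Libraries were stranded and polyA-selected, per the labels' protocols. The submitters' processing notes name Cutadapt 1.9.1, HISAT2 2.0.1 and GRCm38. The sources used here do not give the counting tool, its use of strand or the annotation release. The product of FPKM and exon length has an equal sum in both tables, so abundant transcripts can shift all other values.

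Fragments were recovered from the FPKM steps. All 1512 wild-type and 1372 knockout values checked, of at most 100 fragments and a rounding error below 0.05 of a fragment, lay within 0.1 of a whole number. Intervals cover counting error only, since no molecular identifiers are stated. No count model was used.

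Symbols and coordinates came from GENCODE M21 on GRCm38. Of 55401 identifiers 55141 matched, and for 99.0% of these the exon length was identical. Genes that reached 1 FPKM in either library were compared, after 0.5 FPKM was added for log2 ratios and fold counts. The intervals use plain ratios. Computation used Python 3.11.15, NumPy 2.4.6, pandas 2.3.3 and SciPy 1.17.1, and the steps were tested on simulated data.

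The members and lists were chosen with earlier results of these data known. Named genes are the members, every pathway or family gene at least 1.5-fold apart, and the 3 largest ratios and 2 highest levels of each list. For mitotic, S phase and cilium assembly lists the numbers were 1 and 2. Other genes named here were chosen after their values were seen. Alternatives were pseudocounts of 0.1 and 2 FPKM, filters of 5 FPKM and none, 3 rescalings, a threshold of 1.25-fold and 99% intervals.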

Additional observations from a re-analysis of the deposited data

How the results depend on the processing

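No paired analysis was possible because each genotype has a single library. The 3 rescalings of the knockout library, by a trimmed mean of the ratios, the upper quartile and the median ratio, multiplied it by 1.01, so that Tchp and Pcm1, which lay at or next to a log2 ratio of 0, came out slightly above it. Under the pseudocounts and rescalings the log2 ratio of Aurka stayed between 0.20 and 0.23, that of Plk1 between 0.14 and 0.16, that of Kif24 between 0.14 and 0.24 and that of Katnal1 between -0.19 and -0.14. The median of the 10 genes ran from -0.006 to 0.012. No member reached 1.5-fold under any alternative, nor the lower of the fold thresholds tried. The number of members whose interval excluded 1 was 4, and 3 without Kif24, which a filter of 5 FPKM removes and whose 99% interval includes 1. Nedd9, Kif24 and Tchp rest on 289 to 594 fragments a library, so small differences in them are not resolved at this depth.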

Other observations

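The lower value of Kif19a led to a list of 25 genes of motile cilia, which was chosen after that value was seen and is therefore a description only. Of these genes 11 reached 1 FPKM in a library, 10 of them with log2 ratios below 0 and 1 above, where 53.7% of all genes were below. The counting interval lay below 1 for 8 and above 1 for 0, against 22.3% and 17.7% of all genes. The median log2 ratio was -0.39, against -0.02 over all 14000 genes compared. Tekt2, which encodes a tektin of the ciliary axoneme, measured 5.96 FPKM in the wild-type and 2.85 FPKM in the knockout library, 2.09-fold lower (1.66 to 2.65, counting error only). Tekt1 measured 8.37 and 5.52 FPKM, and Rfx3, a transcription factor of ciliary genes, 7.86 and 6.24 FPKM. Foxj1, the master factor of motile cilia, measured 2.26 and 2.35 FPKM, a ratio of 1.04 with an interval that included 1. Mcidas, needed for multiciliated cells, was listed at 0 in both libraries, and the axonemal dynein genes Dnah5 and Dnah9 were at 0.03 FPKM in both.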
